A study of Homo sapiens with 12 samples.

Results

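The platelet-derived growth factor (PDGF) receptors and ligands were followed at the RNA level in 12 RNA sequencing libraries of a mesothelioma cell line and its drug-resistant derivative. The 5 genes are the receptor genes PDGFRA and PDGFRB and the ligand genes PDGFA, PDGFC and PDGFD. They were matched by symbol to the Ensembl identifiers of the count table, and all 5 were found among its 58302 genes and passed the filter on low counts, as 18035 genes did. The resistant cells are NCI-H226_CL3, obtained from NF2-null NCI-H226 cells by long growth in rising concentrations of a small-molecule TEAD inhibitor. The sensitive cells are NCI-H226, a human mesothelioma line. Each was treated with the TEAD inhibitor GNE-7883 or with the vehicle DMSO, which gave 4 groups of 3 libraries: resistant GNE-7883, resistant DMSO, sensitive GNE-7883 and sensitive DMSO. The sources used here give neither the dose nor the length of that treatment. Only 1 resistant line was sequenced, so what differs between resistant and sensitive cells is known for this line alone. YAP and TAZ, the co-activators that the Hippo pathway holds back, act on DNA through TEAD proteins, and loss of NF2 weakens that restraint.

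PDGFs are secreted, disulphide-linked dimers. Each dimer bridges a pair of receptor chains, and the paired kinase domains phosphorylate each other and recruit PI3 kinase, PLC-gamma, SRC family kinases and the GRB2-SOS link to RAS. PDGFRA binds the A, B and C chains and PDGFRB binds the B and D chains, while mixed receptor pairs widen this choice. PDGF-C and PDGF-D are secreted with an N-terminal CUB domain that proteases must remove before they bind. In tissues these receptors are known mainly from fibroblasts, mural cells and other mesenchymal cells, and PDGF signals have long been studied in mesothelioma.

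The libraries held 31878934 to 46962645 counts each. A count of 0 allows up to 3 counts, or 0.0639 to 0.0941 CPM of the unscaled library total. The levels in CPM given for genes are counts scaled to library size with edgeR's TMM factors. Sensitive DMSO replicate 2 stood apart from its group, with a chi-square per degree of freedom of 39.4 and 45.5 against the other two, which differed from each other by 3.33 (3.51 to 11.3 within the other groups). Mitochondrial transcripts took 0.614 to 0.693% of counts in resistant GNE-7883, 0.561 to 0.685% in resistant DMSO, 0.954 to 1.09% in sensitive GNE-7883 and 0.522 to 0.622% in sensitive DMSO libraries. The 9 mesothelial markers were all detected and summed to 5456 to 6253, 4795 to 5766, 8304 to 8542 and 10530 to 12760 CPM in the same 4 groups. KRT18, KRT8 and KRT19 had the highest means in sensitive DMSO cells, at 3939, 2604 and 2402 CPM. The list did not move as one. With GNE-7883 in sensitive cells CALB2, MSLN, PDPN and UPK3B rose, and KRT5, KRT8, KRT18 and WT1 fell, where 58.1% of all tested genes were called. The 2 epithelial markers EPCAM and CDH1 summed to at most 4.18 CPM in any library. Mesothelioma is the labelled cell type, although the tissue field reads as lung epithelium.

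The promoter sequences of the genes that moved most are shown first. Whether the changes in RNA arose at these sequences was not tested. RefSeq windows on GRCh38.p14 span 250 bases before to 50 after an annotated start, and 4 of the 5 genes had at least 1 such window, 8 in all. Both PDGFRA windows, the PDGFRB window and the PDGFD window are printed 5′ to 3′ on the gene's strand. Capitals mark matches to TGANTCA (the letters bound by AP-1) or CCAAT (bound by NF-Y), on either strand.
PDGFRA upstream start, chr4:54229043-54229342, plus strand: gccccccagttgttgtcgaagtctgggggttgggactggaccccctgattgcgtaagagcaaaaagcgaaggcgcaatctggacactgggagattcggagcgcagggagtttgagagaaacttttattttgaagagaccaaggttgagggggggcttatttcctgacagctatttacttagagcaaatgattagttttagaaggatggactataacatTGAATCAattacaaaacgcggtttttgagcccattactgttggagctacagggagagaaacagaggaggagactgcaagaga
PDGFRA downstream start, chr4:54233710-54234009, plus strand: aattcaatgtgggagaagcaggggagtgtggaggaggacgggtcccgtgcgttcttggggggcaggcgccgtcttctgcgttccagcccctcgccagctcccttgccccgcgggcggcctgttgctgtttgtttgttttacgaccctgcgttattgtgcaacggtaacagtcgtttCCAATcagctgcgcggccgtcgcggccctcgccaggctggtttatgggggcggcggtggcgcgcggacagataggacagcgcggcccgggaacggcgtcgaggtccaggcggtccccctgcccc
PDGFRB, chr5:150155796-150156095, minus strand: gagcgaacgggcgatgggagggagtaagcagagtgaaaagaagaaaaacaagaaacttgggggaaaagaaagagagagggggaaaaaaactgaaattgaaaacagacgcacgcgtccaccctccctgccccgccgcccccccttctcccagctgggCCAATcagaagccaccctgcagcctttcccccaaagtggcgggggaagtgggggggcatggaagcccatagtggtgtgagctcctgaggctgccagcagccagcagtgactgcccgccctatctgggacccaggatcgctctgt
PDGFD, chr11:104164098-104164397, minus strand: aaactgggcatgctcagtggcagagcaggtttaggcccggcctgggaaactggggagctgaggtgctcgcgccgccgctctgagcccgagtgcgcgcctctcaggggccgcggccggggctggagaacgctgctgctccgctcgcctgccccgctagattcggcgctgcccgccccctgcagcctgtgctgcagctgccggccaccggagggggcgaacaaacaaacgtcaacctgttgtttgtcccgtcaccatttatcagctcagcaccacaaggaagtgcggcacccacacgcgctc
The upstream PDGFRA window held TGAATCA at -32 from its start, and TGANTCA occurs in 7.71% of the 35116 windows of that table. CCAAT stood at -74 in the downstream PDGFRA window and at -94 in the PDGFRB window, and occurs in 34.6% of windows. The PDGFD window held neither. GGAATG, the core letters bound by TEAD, was in none of the 8 windows on either strand and occurs in 14% of all windows, while GGGCGG (bound by SP1; 45% of all windows) was in all of them but the upstream PDGFRA window. The matched letters of different motifs did not overlap in the printed windows. A match describes letters, not binding, and since counts are per gene, which start was in use was not measured.

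**Figure D1:**
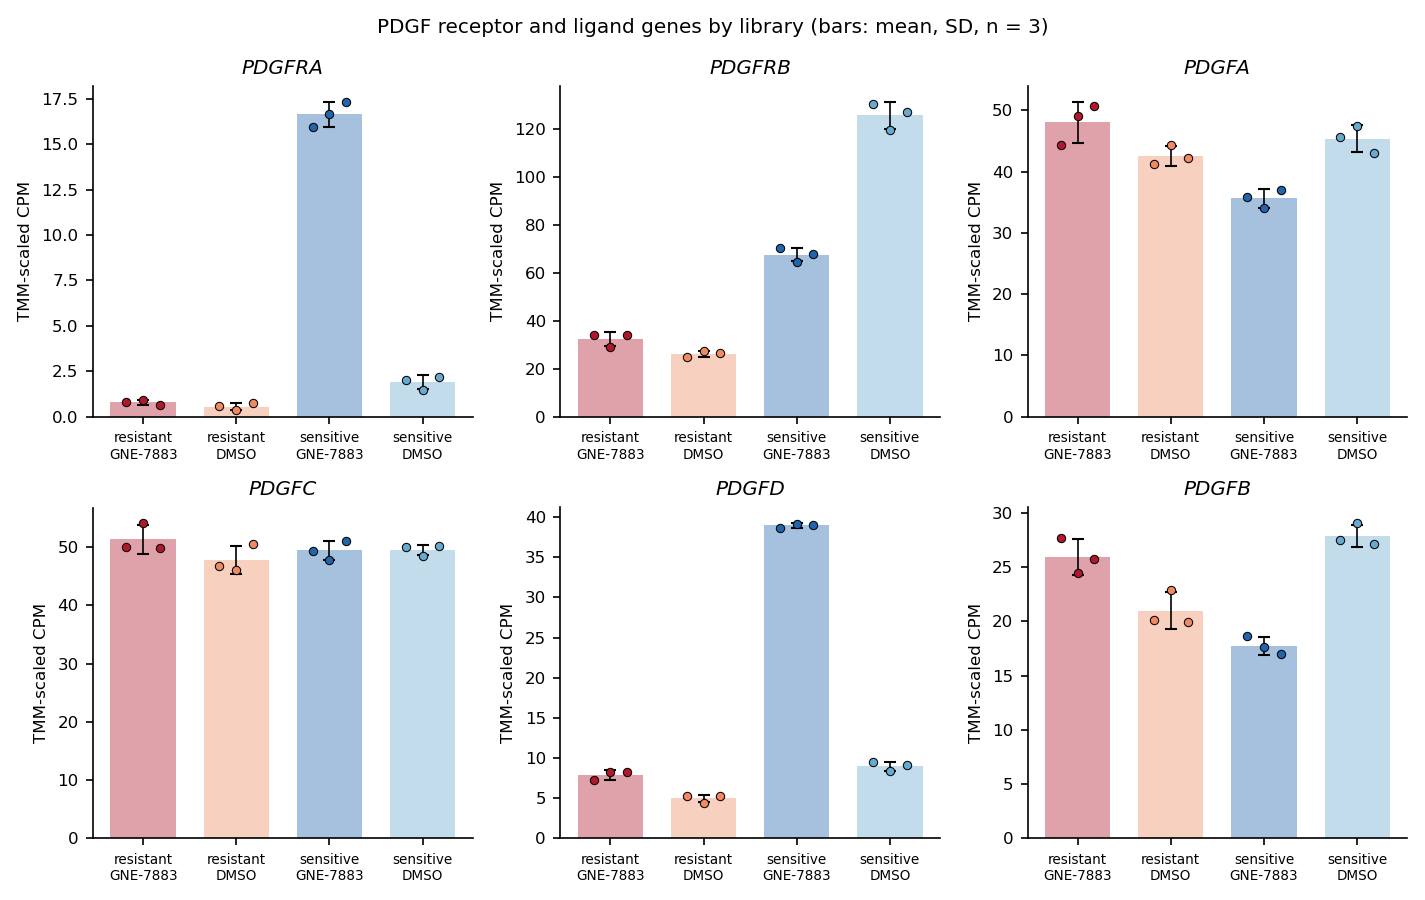
TMM-scaled CPM (vertical axes, each from 0) of the 5 genes and of PDGFB in each library, by group; bars are means, error bars SD, n = 3, and points are libraries. PDGFRA lies between 15.9 and 17.3 CPM in the sensitive GNE-7883 libraries and at or below 2.19 CPM in the 9 others, while PDGFC lies between 46.1 and 54.1 CPM throughout.

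PDGFRA was a nearly silent gene except in sensitive cells on GNE-7883, where it rose 8.73-fold. This receptor gene (ENSG00000134853, chromosome 4, 54229097 to 54298247 on GRCh38, plus strand) had 40, 40 and 23 counts in the resistant GNE-7883 libraries and 25, 18 and 24 in the resistant DMSO libraries. In sensitive cells it had 573, 552 and 653 counts on GNE-7883 and 89, 63 and 80 on DMSO. Scaled by library size, PDGFRA stood at 0.836, 0.927 and 0.628 CPM in resistant GNE-7883 and 0.573, 0.390 and 0.736 CPM in resistant DMSO, and these groups overlapped. It stood at 15.9, 16.7 and 17.3 CPM in sensitive GNE-7883, against 2.05, 1.5 and 2.19 CPM in sensitive DMSO, with every treated library above every vehicle library. The log2 fold change in sensitive cells was 3.13 ± 0.14 (SE, n = 3 per group, adjusted p = 3.58e-11, edgeR quasi-likelihood test), and 47 of 18035 genes, PDGFRA included, had a value that high. In resistant cells the log2 fold change was 0.55 ± 0.25 and did not pass the test (adjusted p = 0.207, 95% interval 0.02 to 1.08).

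Between the lines, PDGFRA was lower in resistant cells on either treatment. In GNE-7883 the groups averaged 0.797 ± 0.153 CPM in resistant and 16.7 ± 0.69 CPM in sensitive cells (SD, n = 3), a log2 difference of -4.37 ± 0.16 (adjusted p = 1.3e-12) or 20.6-fold less. In DMSO they averaged 0.566 ± 0.173 CPM in resistant and 1.91 ± 0.364 CPM in sensitive cells (-1.79 ± 0.21, adjusted p = 3.98e-06), 3.45-fold less. The summed counts behind the resistant groups were 103 on GNE-7883 and 67 on DMSO, so counting error alone is large there. Without sensitive DMSO replicate 2 the rise in sensitive cells was 2.97 and the line difference in DMSO -1.93 on the log2 scale, both still called.

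PDGFRB, the main PDGF receptor of mural cells and fibroblasts, had the highest RPKM of the 5 genes in sensitive DMSO cells and fell with GNE-7883 there. PDGFRB (ENSG00000113721, chromosome 5, 150113837 to 150155872, minus strand) had 34.3, 29.2 and 34.2 CPM in resistant GNE-7883 and 25.1, 27.4 and 26.4 CPM in resistant DMSO libraries. It had 70.4, 64.7 and 67.9 CPM in sensitive GNE-7883 and 130.5, 119.5 and 127.3 CPM in sensitive DMSO libraries. The 4 groups did not overlap: sensitive DMSO was highest, then sensitive GNE-7883, resistant GNE-7883 and resistant DMSO. The log2 fold change with GNE-7883 was 0.31 ± 0.071 in resistant cells (adjusted p = 0.012) and -0.89 ± 0.068 in sensitive cells (adjusted p = 1.58e-08). The rise in resistant cells was lost without resistant DMSO replicate 1 (adjusted p = 0.0648), resistant GNE-7883 replicate 1 (0.0533) or resistant GNE-7883 replicate 3 (0.0632), within 0.00114 to 0.0648 over all libraries left out in turn. Resistant cells held 2.08-fold less PDGFRB than sensitive cells in GNE-7883 (log2 -1.06 ± 0.07, adjusted p = 1.92e-09) and 4.79-fold less in DMSO (-2.26 ± 0.071, adjusted p = 5.44e-13). In the DMSO comparison 407 of 18035 genes, PDGFRB included, were lower by at least that much.

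PDGFD, the ligand that binds PDGFRB, rose with GNE-7883 in both lines, and by more in sensitive cells. PDGFD (ENSG00000170962, chromosome 11, 103907186 to 104164379, minus strand) had 7.21, 8.29 and 8.30 CPM in resistant GNE-7883, against 5.22, 4.44 and 5.25 CPM in resistant DMSO libraries. It had 38.7, 39.2 and 39.1 CPM in sensitive GNE-7883, against 9.51, 8.40 and 9.09 CPM in sensitive DMSO libraries. Treated and vehicle libraries did not overlap in either line, and resistant GNE-7883 stayed below sensitive DMSO in every library. The log2 fold change was 0.68 ± 0.091 in resistant cells (adjusted p = 0.000191) and 2.11 ± 0.081 in sensitive cells (adjusted p = 6.79e-12; 240 of 18035 genes, PDGFD included, had a value that high). Resistant cells were 4.92-fold lower than sensitive cells in GNE-7883 (log2 -2.30 ± 0.082, adjusted p = 1.11e-12) and 1.82-fold lower in DMSO (-0.86 ± 0.091, adjusted p = 9.51e-07).

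PDGFA fell slightly with GNE-7883 in sensitive cells, and PDGFC was called in no comparison. PDGFA, the classical PDGFRA ligand (ENSG00000197461, chromosome 7, 497258 to 520296, minus strand), had 44.3, 49.1 and 50.7 CPM in resistant GNE-7883 and 41.2, 44.4 and 42.1 CPM in resistant DMSO libraries. It had 35.9, 34.0 and 37.0 CPM in sensitive GNE-7883 and 45.7, 47.4 and 43.0 CPM in sensitive DMSO libraries, so the sensitive GNE-7883 group lay below all others. With GNE-7883, PDGFA had a log2 fold change of 0.17 ± 0.066 in resistant cells, which was not called (adjusted p = 0.122), and fell in sensitive cells (log2 -0.35 ± 0.066, adjusted p = 0.000307). The value in resistant cells was called without sensitive DMSO replicate 2 (adjusted p = 0.0395) and without resistant GNE-7883 replicate 1 (0.0473), in a range of 0.0395 to 0.363 over the libraries left out. PDGFA was higher in resistant than in sensitive cells in GNE-7883 (log2 0.43 ± 0.066, adjusted p = 3.4e-05), and in DMSO the difference was -0.09 ± 0.066 (adjusted p = 0.27).

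PDGFC, the CUB-domain ligand of PDGFRA (ENSG00000145431, chromosome 4, 156760454 to 156971394, minus strand), averaged 51.3 ± 2.41, 47.8 ± 2.45, 49.5 ± 1.65 and 49.5 ± 0.899 CPM in resistant GNE-7883, resistant DMSO, sensitive GNE-7883 and sensitive DMSO cells (SD, n = 3). Its groups overlapped in each of the 4 pairs, and no comparison was called. The 95% interval of its log2 fold change with GNE-7883 ran from -0.02 to 0.23 in resistant cells and from -0.13 to 0.12 in sensitive cells. Between the lines the interval was -0.07 to 0.18 in GNE-7883 and -0.18 to 0.07 in DMSO.

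**Figure D2:**
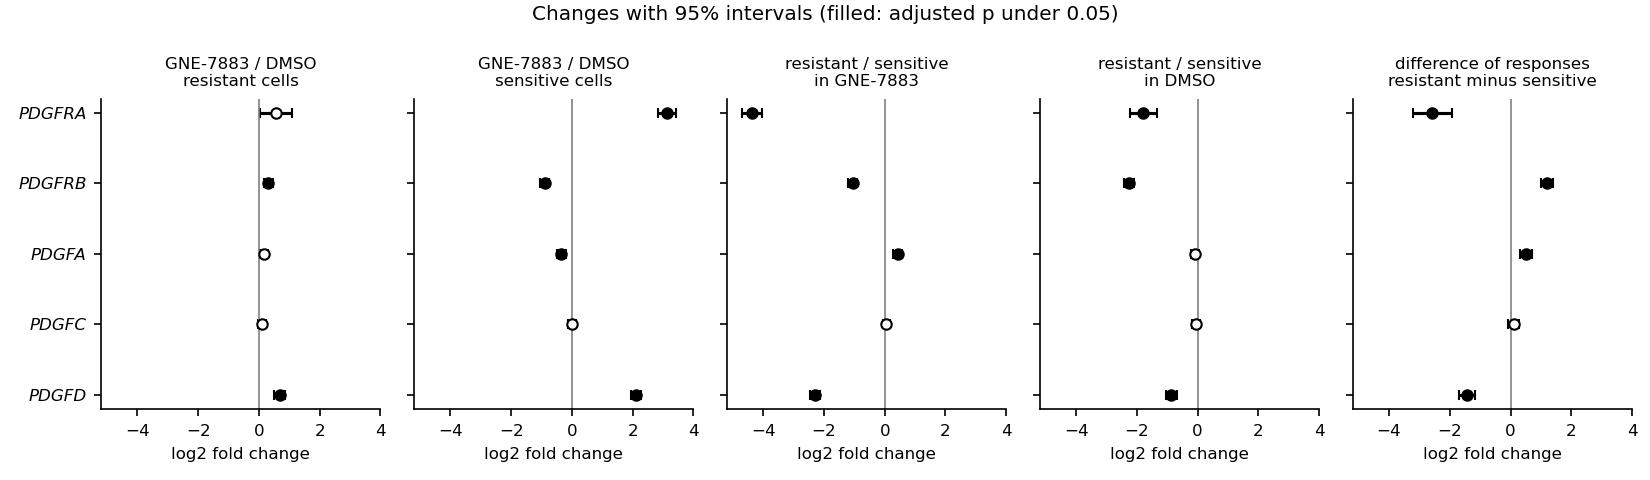
Log2 fold changes (horizontal axes) of the 5 genes in 5 comparisons, tested over the 12 libraries with edgeR; bars are 95% intervals and filled points have an adjusted p under 0.05. PDGFRA at 3.13 and PDGFD at 2.11 lie to the right in sensitive cells on GNE-7883, PDGFRB at -0.89 to the left, and PDGFC lies near 0 in each panel.

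Counted together, 2 of the 5 genes rose (PDGFRB, PDGFD) and 0 fell with GNE-7883 in resistant cells, where 9.22% of all tested genes were called. At an unadjusted p under 0.05, 4 were higher and 0 lower there in edgeR, and DESeq2 and limma-voom each called the same number as edgeR, 2 higher and 0 lower. Leaving out 1 library in turn, 1 to 3 of the 5 were called in resistant cells. In sensitive cells 2 rose (PDGFRA, PDGFD) and 2 fell (PDGFRB, PDGFA), where 58.1% of genes were called, so a call alone does not set these genes apart. Between the lines in GNE-7883, resistant cells had 1 gene higher (PDGFA) and 3 lower (PDGFRA, PDGFRB, PDGFD), against 61.9% of all genes called. In DMSO the same 3 genes were lower and 0 higher in edgeR, against 48.7%, with 0 higher at an unadjusted p under 0.05, by DESeq2 or by limma-voom. These comparisons share libraries in pairs, so their values are not independent.

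The response to GNE-7883 itself differed between the lines for 4 of the 5 genes, where 35.7% of all genes were called. The difference, the response in resistant minus that in sensitive cells, was -2.58 ± 0.3 for PDGFRA (adjusted p = 7.3e-06), -1.44 ± 0.12 for PDGFD (2.51e-07), 1.20 ± 0.098 for PDGFRB (1.61e-07) and 0.52 ± 0.093 for PDGFA (0.00042), all on the log2 scale. For PDGFRB the response was upward in resistant and downward in sensitive cells, each past the test. For PDGFC the difference was 0.10 with an interval of -0.07 to 0.28 (adjusted p = 0.354). The libraries in which PDGFRA and PDGFD were highest also had the highest mitochondrial share and the highest sums of 3 marker lists. The 5 endothelial markers summed to 199 to 214 CPM there, against at most 97.0 CPM in every other library. KDR alone averaged 185.2 CPM of that sum, and the list did not move as one. With GNE-7883 KDR and PECAM1 rose and TIE1 and VWF fell in sensitive cells (median log2 0.01), where 58.1% of all genes were called. The 5 blood markers summed to 5.32 to 6.13 CPM, against at most 2.31 CPM elsewhere, with CD14 at 592 summed counts in sensitive GNE-7883 and 2 of the 5 at 0 there. The 4 alveolar and airway markers summed to 0.612 to 2.30 CPM, against at most 0.0836 CPM elsewhere, and SFTPC, a surfactant protein gene, had 21, 28 and 28 counts in sensitive GNE-7883 and 0 or 1 in each other library. The part of these in the PDGF results was not tested. In bulk RNA, fewer cells of a kind and less RNA per cell cannot be told apart.

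Compared per length, in the deposited RPKM (reads scaled to gene length and library size), the order of the genes differed between the groups. In resistant GNE-7883 cells PDGFA had 20.8 ± 1.56, PDGFC 12.7 ± 0.7, PDGFRB 5.85 ± 0.48, PDGFD 2.00 ± 0.17 and PDGFRA 0.104 ± 0.02 RPKM (SD, n = 3). Resistant DMSO cells had the same order, with PDGFA at 18.4, PDGFC at 11.8, PDGFRB at 4.71, PDGFD at 1.25 and PDGFRA at 0.0738 RPKM. In sensitive GNE-7883 cells PDGFA led at 14.6 ± 0.62 RPKM, PDGFC at 11.5 ± 0.39 and PDGFRB at 11.5 ± 0.49 overlapped, and PDGFD at 9.31 ± 0.07 and PDGFRA at 2.06 ± 0.09 followed. In sensitive DMSO cells PDGFRB led at 21.4 ± 0.85 RPKM, ahead of PDGFA at 18.6 ± 1.04, PDGFC at 11.6 ± 0.13, PDGFD at 2.15 ± 0.12 and PDGFRA at 0.236 ± 0.04. Apart from PDGFC and PDGFRB in sensitive GNE-7883, neighbours in each order did not overlap between libraries. The order in sensitive GNE-7883 depended on the gene lengths: the deposited RPKM imply 2374 bases for PDGFA, against 4151 bases in the exon union of GENCODE 29, and 4073 against 4266 bases for PDGFD. Per exon-union length, an alternative chosen after the data were seen, PDGFRB stood at 9.23 ± 0.389, PDGFD at 8.89 ± 0.0655, PDGFC at 8.60 ± 0.293 and PDGFA at 8.35 ± 0.354 there, each overlapping the next, while the order of the other 3 groups was as in RPKM.

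**Figure D3:**
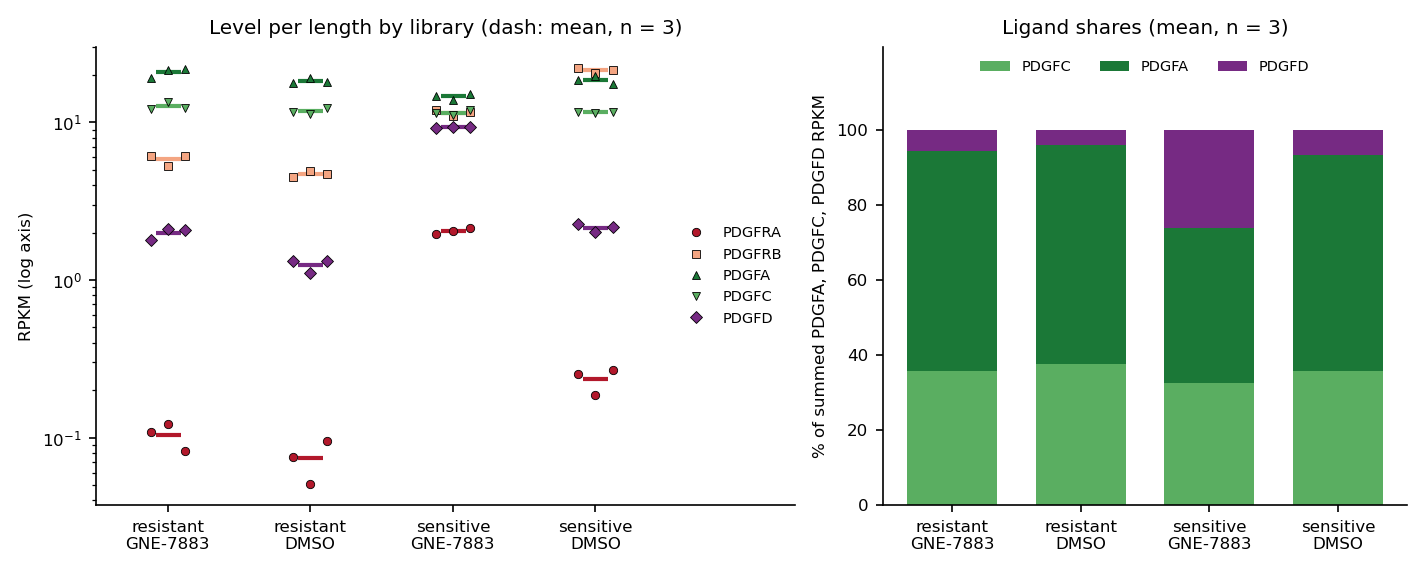
Left, RPKM (log axis) of the 5 genes in each library with group means as dashes (n = 3). Right, the mean share (%) of PDGFC, PDGFA and PDGFD in their summed RPKM, where PDGFD takes 26.3% in sensitive GNE-7883 cells and 3.99 to 6.66% in the other groups (34.4% and 5.84 to 9.64% with exon-union lengths).

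PDGFD made up 5.64 ± 0.16% of the summed RPKM of the 3 ligands in resistant GNE-7883, 3.99 ± 0.4% in resistant DMSO, 26.3 ± 0.8% in sensitive GNE-7883 and 6.66 ± 0.47% in sensitive DMSO cells. The ligand sum itself was 35.4 ± 2.12, 31.4 ± 0.56, 35.5 ± 0.99 and 32.4 ± 0.89 RPKM in the same order of groups. The summed receptors were 5.95 ± 0.46, 4.79 ± 0.18, 13.6 ± 0.45 and 21.7 ± 0.88 RPKM. PDGFRA was 1.77 ± 0.47%, 1.55 ± 0.49%, 15.2 ± 0.91% and 1.09 ± 0.17% of that receptor sum. PDGFRB exceeded PDGFRA by a ratio of 43.4 to 75.1 in resistant GNE-7883, 49.4 to 96.8 in resistant DMSO, 5.35 to 6.08 in sensitive GNE-7883 and 80.1 to 109.8 in sensitive DMSO libraries. In resistant cells these ratios rest on few PDGFRA counts, 103 summed on GNE-7883 and 67 on DMSO, so counting error is large in them. With PDGFB counted among the ligands, the PDGFD share was 4.65, 3.34, 23.1 and 5.39% in the same order. With the exon-union lengths it was 8.22, 5.84, 34.4 and 9.64% of the 3 ligands.

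Of the rest of the family, PDGFB, which binds both receptors (ENSG00000100311, chromosome 22), was lowest in sensitive GNE-7883 cells, as PDGFA was. PDGFB averaged 25.9 ± 1.64, 21.0 ± 1.67, 17.8 ± 0.839 and 27.9 ± 1 CPM in resistant GNE-7883, resistant DMSO, sensitive GNE-7883 and sensitive DMSO cells (SD, n = 3). With GNE-7883 PDGFB rose in resistant cells (log2 0.30 ± 0.073, adjusted p = 0.0159) and fell in sensitive cells (-0.65 ± 0.074, adjusted p = 1.68e-06). The rise was lost without resistant DMSO replicate 1 (adjusted p = 0.0689), resistant DMSO replicate 3 (0.0634) or resistant GNE-7883 replicate 1 (0.0642). PDGFRL, a receptor-like gene without a kinase domain, averaged 10.5 to 11.9 CPM in the 4 groups and was called in no comparison, and its counts may include reads of the overlapping gene MTUS1 on the opposite strand.

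Of the other class III receptor kinases and their ligands, 4 of 7 genes were tested. KIT had 9 counts and CSF1R 55 over the 12 libraries, too few to test, although KIT is the next protein-coding gene above PDGFRA in coordinate and CSF1R the next below PDGFRB. All 4 tested genes rose with GNE-7883 in sensitive cells, with a median log2 of 1.06 against 0.02 over all genes, of which 29.8% rose and 58.1% were called. CSF1, the macrophage growth factor, had 119 ± 9.73 CPM in resistant GNE-7883, 68.4 ± 5.43 CPM in resistant DMSO, 324 ± 5.31 CPM in sensitive GNE-7883 and 129 ± 2.23 CPM in sensitive DMSO cells. Its log2 change was 0.80 in resistant and 1.33 in sensitive cells. IL34, which binds the same receptor, had 0.65 in resistant cells, which was not called (adjusted p = 0.0625), and 1.28 in sensitive cells. The IL34 value in resistant cells was called by edgeR without sensitive DMSO replicate 2 (adjusted p = 0.0371) and without resistant DMSO replicate 2 (0.0489). FLT3 rose by 0.79 in resistant and 0.85 in sensitive cells and was lower in resistant than in sensitive cells in GNE-7883 (-2.13) and in DMSO (-2.07). KITLG had -0.22 in resistant cells (adjusted p = 0.376) and rose by 0.81 in sensitive cells.

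Of 10 tested genes for ligand processing, binding and uptake, 1 rose and 1 fell with GNE-7883 in resistant cells, with a median log2 of 0.13, where 9.22% of all genes were called. In sensitive cells 6 rose and 4 fell, with a median of 0.71, where 58.1% of all genes were called. Among the proteases that free the PDGF-C and PDGF-D core domains, PLAT fell and PLAU rose in sensitive cells. PLAT, which encodes tissue plasminogen activator, the activator of PDGF-C, had 115.6 ± 12.2 CPM in resistant GNE-7883 and 179.7 ± 2.17 CPM in resistant DMSO, and 35.5 ± 2.53 CPM in sensitive GNE-7883 and 82.0 ± 1.62 CPM in sensitive DMSO cells. It fell with GNE-7883 by 0.64 in resistant and by 1.21 in sensitive cells on the log2 scale, and was higher in resistant cells in GNE-7883 (log2 1.70) and in DMSO (1.13). PLAU, which encodes urokinase, an activator of PDGF-D, rose in sensitive cells (log2 2.24, adjusted p = 1.6e-06) at a low level, 1.22 ± 0.243 CPM on GNE-7883 against 0.258 ± 0.0724 CPM on DMSO. ST14, which encodes another PDGF-D protease, had 38 counts in all and was not tested. Among the proprotein convertases FURIN rose by 0.68 in sensitive cells and PCSK6 fell by 0.56, and PCSK6 was lower in resistant cells in DMSO (-1.70). NRP1, a co-receptor, and LRP1, an endocytic receptor that associates with PDGFRB, had 0.10 and 0.23 in resistant cells, neither called, and rose by 1.26 and 1.17 in sensitive cells. SPARC, which binds PDGF dimers, rose by 0.16 in resistant cells and fell by 0.38 in sensitive cells. A2M, a PDGF-binding protease inhibitor, was lower in resistant cells in GNE-7883 (-2.39) and DMSO (-1.74), at no more than 1.63 CPM in any library.

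**Figure D4:**
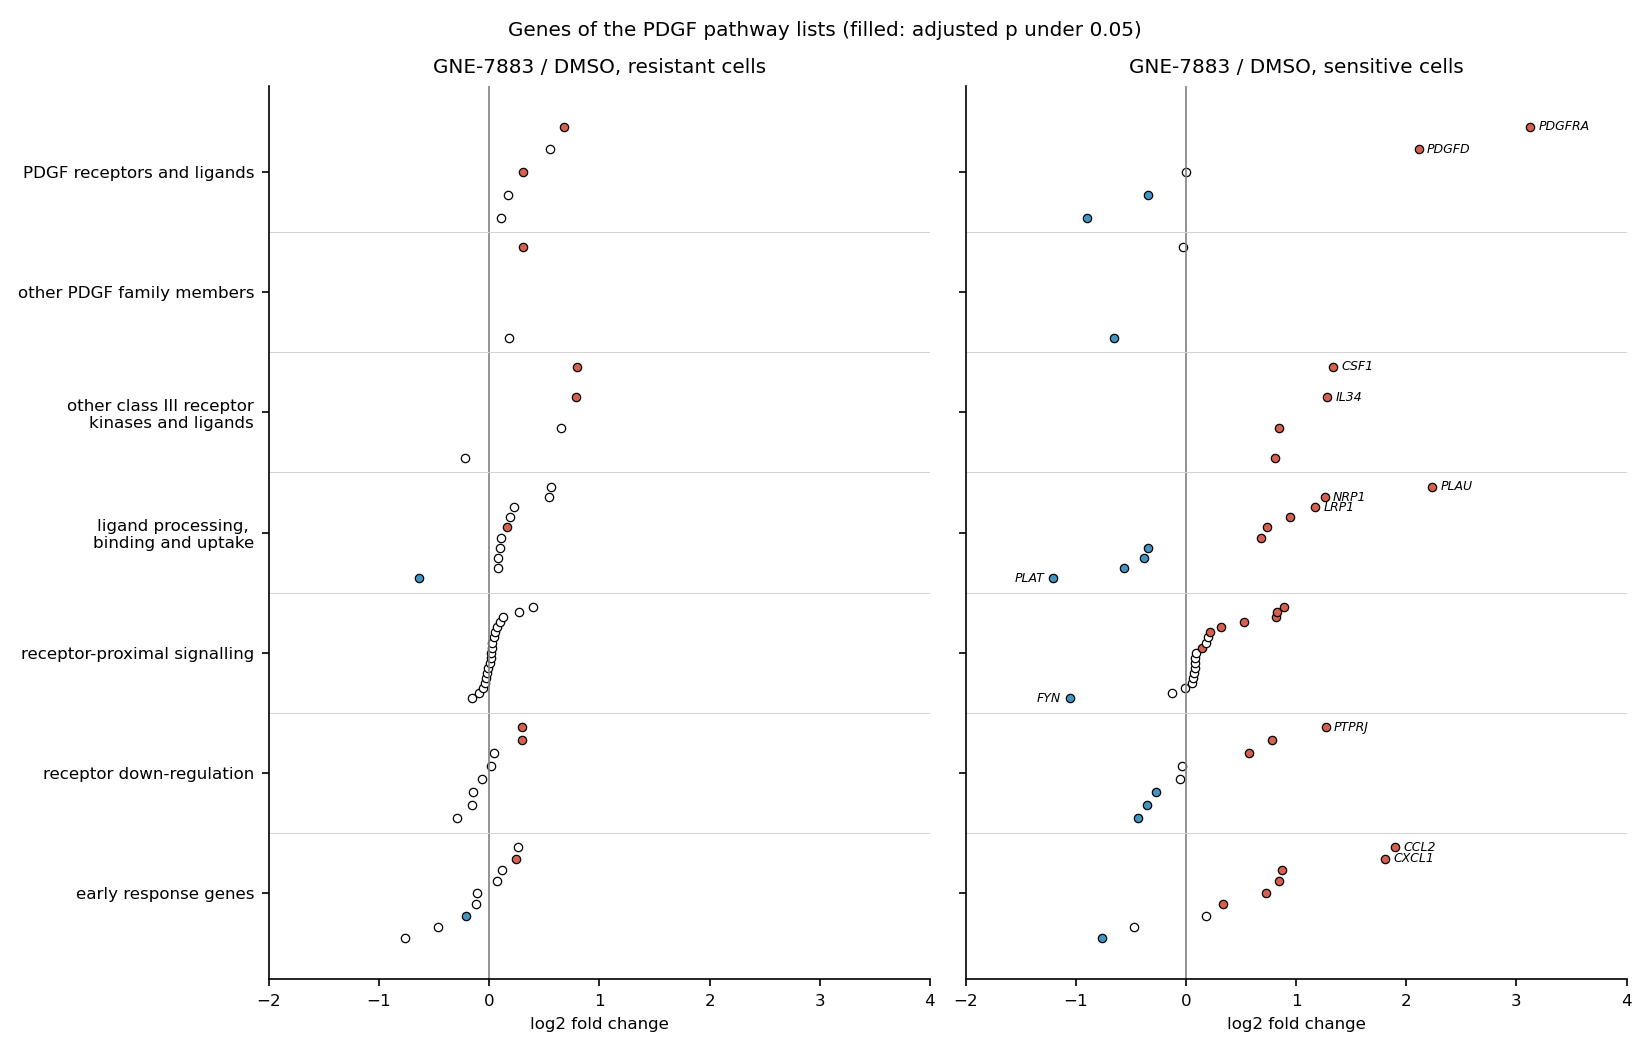
Log2 fold changes with GNE-7883 (horizontal axis) of the tested genes of the PDGF lists, resistant cells left and sensitive cells right; filled points have an adjusted p under 0.05 and symbols are given for changes of at least 1 on the log2 scale. Of the 19 receptor-proximal genes 0 are filled in resistant cells and 8 in sensitive cells.

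STAT3 and NCK1 rose and FYN fell with GNE-7883 in sensitive cells, while no signalling gene next to the receptors was called in resistant cells. Of 19 receptor-proximal genes, 0 were called by edgeR with GNE-7883 in resistant cells (median log2 0.02; 1 at an unadjusted p under 0.05, 0 by DESeq2 and 0 by limma-voom), and 7 rose and 1 fell in sensitive cells (median 0.09), against 9.22% and 58.1% of all genes called. STAT3 rose by 0.89 in sensitive cells, to 708.5 ± 8.37 CPM on GNE-7883 against 383.4 ± 19.7 CPM on DMSO, and the adaptor NCK1 rose by 0.81. FYN, a SRC family kinase, fell by 1.06 there, to 96.0 ± 1.2 CPM on GNE-7883 against 199.4 ± 1.87 CPM on DMSO, while both resistant groups stood near the treated level, at 98.0 ± 1.91 CPM on GNE-7883 and 102.1 ± 3.57 CPM on DMSO. RASA1, the RAS GTPase activator that docks on PDGFRB, was higher in resistant cells in GNE-7883 (log2 1.02) and in DMSO (0.98). Between the lines 7 of the 19 were higher and 5 lower in GNE-7883, where 61.9% of all genes were called, and 8 higher and 6 lower in DMSO, where 48.7% were. The share of the list called was thus near that of all genes in GNE-7883.

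Of 8 genes for receptor down-regulation, 2 rose with GNE-7883 in resistant cells (9.22% of all genes called), and 3 rose and 3 fell in sensitive cells (58.1%). In resistant cells DESeq2 and limma-voom each called 2 higher and 1 lower, where edgeR called 0 lower. PTPRJ, which encodes a receptor phosphatase that acts on PDGFRB, had 227.5 ± 3.19 CPM in resistant GNE-7883, 184.7 ± 6.99 CPM in resistant DMSO, 936.7 ± 35.1 CPM in sensitive GNE-7883 and 388.9 ± 54.2 CPM in sensitive DMSO cells. Its log2 change with GNE-7883 was 0.30 in resistant and 1.27 in sensitive cells. The call in resistant cells (adjusted p = 0.0239) was lost in 5 of the 6 fits that left out a resistant library, at adjusted p = 0.0719 to 0.111. The ubiquitin ligase gene CBLB rose by 0.78 in sensitive cells, and CBL had -0.05 (adjusted p = 0.789).

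Of 9 early response genes that PDGF induces in other cells, 1 rose and 1 fell with GNE-7883 in resistant cells (median log2 -0.11; 9.22% of all genes called), and 6 rose and 1 fell in sensitive cells (median 0.73; 58.1% of all genes called, 29.8% higher). CCL2 and CXCL1, which encode chemokines, rose by 1.90 and 1.81 in sensitive cells. CCL2 rose by 0.24 in resistant cells (adjusted p = 0.036), a call lost in 6 of the 12 fits with a library left out (0.0514 to 0.127) and with the replicate block (0.0539). FOS rose by 0.87 and EGR1 by 0.73 in sensitive cells, at 2.35 and 1.68 CPM on GNE-7883 against 1.27 and 1.01 CPM on DMSO, and MYC fell by 0.77. Between the lines the list went both ways, with 3 higher and 4 lower in GNE-7883, where 61.9% of all genes were called. In DMSO 4 were higher and 2 lower, where 48.7% of all genes were called. FOSB and IER3 were higher in resistant than in sensitive cells in GNE-7883 (log2 0.92 and 0.77) and in DMSO (1.21 and 1.08). The FOSB call in GNE-7883 (adjusted p = 0.0226) was lost without sensitive GNE-7883 replicate 2 (0.0919) or 3 (0.0996) or resistant GNE-7883 replicate 1 (0.108). CCL2 and CXCL1 were lower in resistant cells in GNE-7883 (-2.07 and -3.61) and in DMSO (-0.42 and -1.87), and FOS (-1.16) and JUNB (-0.94) were lower in GNE-7883.

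Around the receptor genes, neighbours within 1 Mb were examined, since PDGFRA, KIT and KDR, and PDGFRB and CSF1R, are adjacent relatives. Of 4 tested neighbours of PDGFRA, KDR, a VEGF receptor gene 0.849 Mb away (distances are between the lower coordinates of the genes), had a similar profile: 31.6 ± 1.68 CPM in resistant GNE-7883, 21.4 ± 0.64 in resistant DMSO, 185.2 ± 8.19 in sensitive GNE-7883 and 54.5 ± 7.23 in sensitive DMSO cells. KDR rose by 0.56 in resistant and 1.77 in sensitive cells with GNE-7883 and differed between the lines by -2.55 in GNE-7883 and -1.35 in DMSO. The other three tested neighbours, FIP1L1, LNX1 and CHIC2, had log2 changes of -0.40, 0.57 and -0.10 in sensitive cells and were higher in resistant cells in DMSO (0.26, 0.29 and 0.61), where PDGFRA was lower. Of 25 tested neighbours of PDGFRB, 13 rose and 6 fell with GNE-7883 in sensitive cells, where 58.1% of all genes were called, and 6 were higher and 10 lower in resistant cells in DMSO, where 48.7% were, with a median of -0.17. Near PDGFC, CTSO, 0.836 Mb away, rose by 2.01 in sensitive cells, where PDGFC did not. TDO2 rose there too, by 5.52 at a low level (0.893 CPM on GNE-7883, 0.0159 CPM on DMSO), and GLRB was not called. Of 2 tested neighbours of PDGFD, DYNC2H1 rose by 0.98 and DCUN1D5 fell by 0.60 with GNE-7883 in sensitive cells, where PDGFD rose and 58.1% of all genes were called. Of 12 tested neighbours of PDGFA, 0 rose and 7 fell with GNE-7883 in sensitive cells (median -0.22). There 58.1% of all genes were called and 28.4% fell, PDGFA among them. Resistant cells had 7 higher and 2 lower in GNE-7883 (61.9% of all genes called), and 4 higher and 3 lower in DMSO (48.7% of all genes called). The difference of the responses was upward for 4 and downward for 0 (35.7% of all genes called), and upward for PDGFA. Whether PDGFA moved with its neighbours was not tested.

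**Figure D5:**
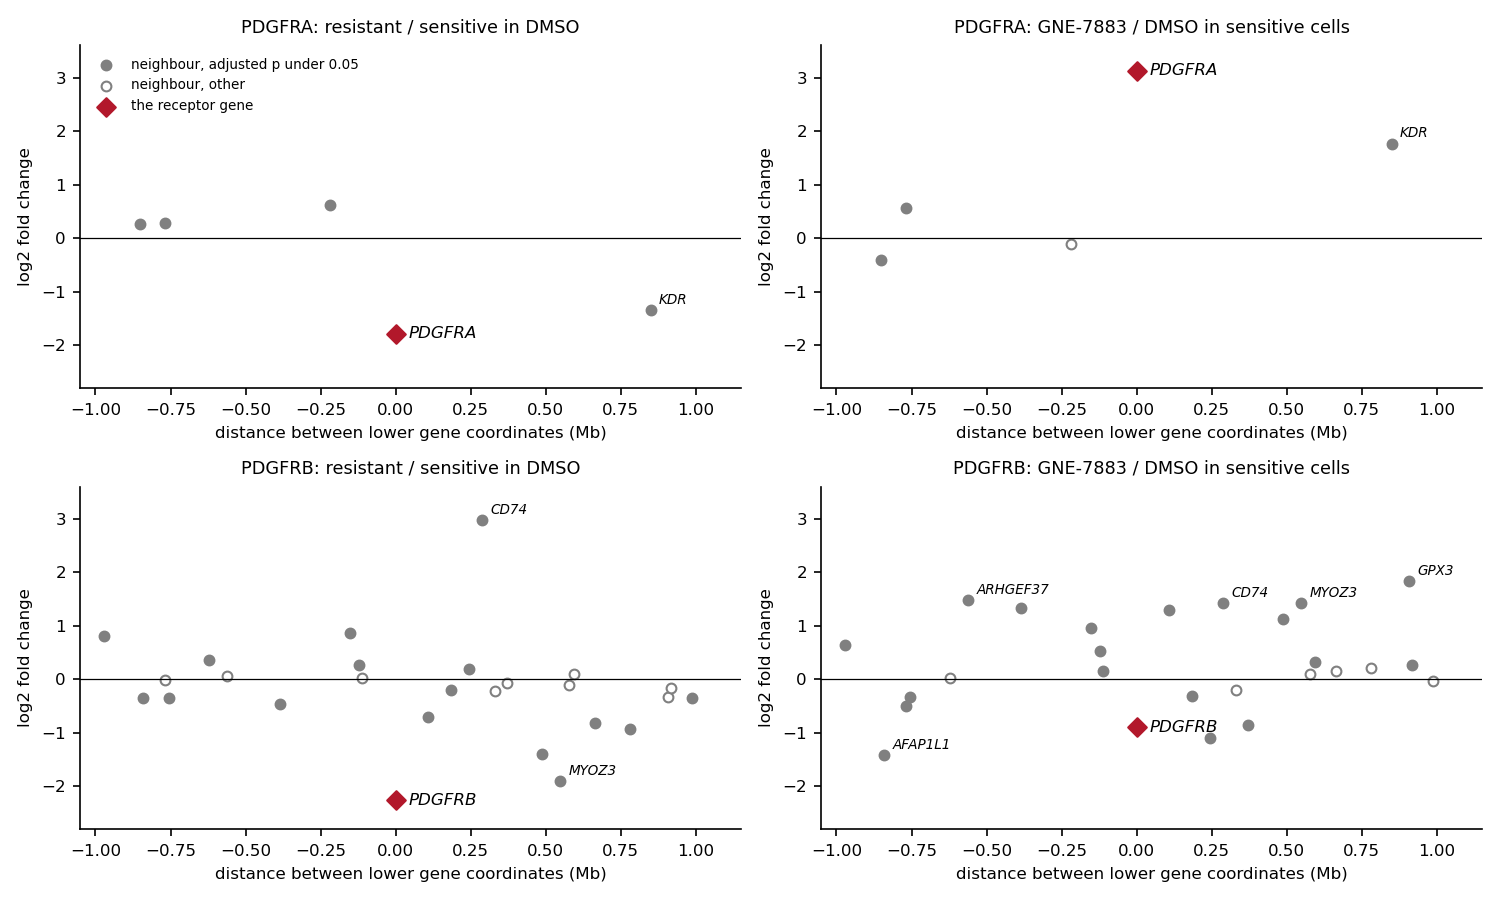
Log2 fold change (vertical axis) of tested genes within 1 Mb of PDGFRA (top) and PDGFRB (bottom) by the signed distance between lower gene coordinates in Mb, for resistant against sensitive cells in DMSO (left) and GNE-7883 against DMSO in sensitive cells (right); diamonds are the receptor genes, and filled circles are neighbours with an adjusted p under 0.05. KDR at 1.77 lies on the side of PDGFRA in sensitive cells, while CD74, at 2.97 in the line comparison, lies opposite to PDGFRB. In that line comparison 10 of the 25 tested PDGFRB neighbours were lower and 6 higher, where 48.7% of all genes were called.

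The genes whose profiles were most like each of the 5 over the 12 libraries were found by Pearson r of log2 CPM among 11240 genes. They are a description only, as the 12 libraries fall into 4 groups. This r compares the shape of a profile, not its level or the size of its changes. SGMS1, for example, had 130.5 CPM in sensitive GNE-7883 and 66.8 CPM in sensitive DMSO cells, where PDGFRA had 16.65 and 1.91 CPM. SGMS1 (r = 0.996), GFOD1 (0.994) and ATP1B1 (0.994) were nearest to PDGFRA, and RHPN2 (0.996), CGN (0.995) and ADAMTSL4 (0.994) to PDGFRB. LMBRD1 (0.998), SOD2 (0.997) and PCMTD1 (0.996) were nearest to PDGFD, with SOD2, the mitochondrial superoxide dismutase gene, at 1034, 567.5, 6546 and 1248 CPM in resistant GNE-7883, resistant DMSO, sensitive GNE-7883 and sensitive DMSO cells. Likeness was lower for PDGFA (ARL3 at 0.944, PADI1 at 0.931 and S100A16 at 0.910) and for PDGFC (MAL2 at 0.749, PDCD6IP at 0.644 and MIPEP at 0.637).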

How the data were processed

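RNA of the 12 samples was made into libraries with the TruSeq kit v2 (no strand information), per the labels' protocols. The submitters' processing notes name GSNAP, limma and GRCh38.p10, and the sources used here name no counting tool, annotation or strand setting. The authors deposited whole-number read counts per Ensembl gene, and RPKM of the same genes. RPKM equalled counts scaled by gene length and library total (relative deviation at most 9.2e-09 over 12122 genes of at least 50 counts in every library). Symbols and coordinates came from GENCODE 29 (58039 of 58302 identifiers matched).

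R 4.3.3 and edgeR 4.0.16 were used to test the counts, with TMM factors, filterByExpr (18035 genes kept) and two-sided quasi-likelihood tests in a fit of all 12 libraries with 8 residual degrees of freedom. P-values were adjusted by Benjamini-Hochberg over the tested genes, and called genes have an adjusted p below 0.05. CPM are TMM-scaled; RPKM served comparisons between genes. The fit was tested on simulated counts. Alternatives were DESeq2 size factors, DESeq2 1.42.0, limma-voom (limma 3.58.1), no filter, a filter of 5 CPM, only the groups compared, a replicate block and each library left out. Whether libraries of a group are separate cultures is not labelled, so the p-values reflect the spread among these libraries only, possibly a technical one.

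The 5 genes, the lists and the tests were chosen with earlier results of these data known. Named beside them are list genes called with a log2 change of at least 1 and 1 CPM in a group, those needed for a role, and the 3 genes most like each member. KDR, CBL, CBLB, MYC, FURIN, SPARC and the other neighbours were named after their values were seen. PDGFRA shares exons with a readthrough gene of 0 counts and PDGFD overlaps DDI1 (11 counts in all). Limits from a count of 0 cover counting error only, and protein was not measured.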

Additional observations from a re-analysis of the deposited data

Results flagged for a closer look

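The response to GNE-7883 differed between the lines by a test of the difference itself, the response in resistant minus that in sensitive cells, for 4 genes. By that test 35.7% of all genes were called. PDGFRA differed by -2.58 on the log2 scale, with responses of 0.55 in resistant and 3.13 in sensitive cells. PDGFD differed by -1.44, with responses of 0.68 in resistant and 2.11 in sensitive cells. PDGFRB differed by 1.20, with responses of 0.31 in resistant and -0.89 in sensitive cells. PDGFA differed by 0.52, with responses of 0.17 in resistant and -0.35 in sensitive cells. All 4 held in each of the 12 fits that left out a library, with the highest adjusted p at 0.000111 for PDGFRA, 4.39e-06 for PDGFD, 1.55e-06 for PDGFRB and 0.00181 for PDGFA.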

How the results depend on the processing

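Over 470 values of the 5 genes under 19 alternatives, 460 kept their direction and their side of the threshold. The PDGFC response in sensitive cells, -0.0017 and never called, turned sign in 5 (0.0003 to 0.0216), and 0 values changed sign while called. The 5 changed calls were all responses in resistant cells with 1 library left out: PDGFRB ranged from 0.28 to 0.38 and lost its call in 3 fits, and PDGFA ranged from 0.14 to 0.24 and gained one in 2. The number of the 5 genes called there ranged from 1 to 3, and the number of all genes called from 854 without resistant GNE-7883 replicate 3 to 3060 without sensitive DMSO replicate 2, against 1663. That number was also 861 and 950 without resistant DMSO replicates 1 and 3, and 984 without resistant GNE-7883 replicate 1. Fits that left out a library assume that its group varies like the others.

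Deviations of same-numbered libraries correlated at -0.119 to 0.18, with the highest value between replicate 2 of sensitive DMSO and of resistant DMSO. Differently numbered libraries were not compared in this way, so whether the replicate numbers pair the libraries was not settled. With the replicate block the PDGFRA response in sensitive cells was 3.13 and the PDGFRB response in resistant cells 0.31 (adjusted p = 0.016). It kept each call of the 5 genes, and 1372 genes were called in resistant cells. DESeq2 called 1982 there, and a fit of the 2 groups alone 2470. PDGFRA depth limits its test in resistant cells, at 103 summed counts on GNE-7883 and 67 on DMSO.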

Other observations

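PDGF receptors are used as markers of fibroblasts and mural cells, so other markers of those cells were read in the same libraries. The 5 fibroblast markers summed to 467.9 to 539.4 CPM in resistant GNE-7883, 350.9 to 444.6 CPM in resistant DMSO, 407.1 to 470.7 CPM in sensitive GNE-7883 and 644.8 to 714.7 CPM in sensitive DMSO libraries, and 2 of them, COL1A1 and DCN, could be tested. COL1A1 made up nearly all of these sums, with means of 503.3, 388.9, 442.7 and 670.1 CPM in the same order of groups. COL1A2, LUM and DPT had 19, 33 and 1 counts over the 12 libraries. COL1A1, a collagen chain gene, rose by 0.37 on the log2 scale with GNE-7883 in resistant cells (adjusted p = 0.0112) and fell by 0.60 in sensitive cells. DCN, a matrix proteoglycan gene, went the other way in sensitive cells. It had 7 summed counts in resistant GNE-7883 and 10 in resistant DMSO (adjusted p = 0.738), and rose to 1.32 ± 0.29 CPM in sensitive GNE-7883, against 0.426 ± 0.171 CPM in sensitive DMSO (SD, n = 3, adjusted p = 0.00023). DCN was lower in resistant than in sensitive cells in GNE-7883 (log2 -4.50) and in DMSO (-2.36). The 8 mural cell markers summed to 156.1 to 169.7, 157.2 to 161.1, 166.4 to 170.6 and 191.7 to 200.4 CPM in the same order of groups. Of 6 tested, 0 were called by edgeR with GNE-7883 in resistant cells (1 at an unadjusted p under 0.05, 0 by DESeq2 and 0 by limma-voom), where 9.22% of all genes were called. In sensitive cells 2 rose (RGS5, ACTA2) and 2 fell (MCAM, CSPG4), where 58.1% of all genes were called. Between the lines the mural list went both ways. In GNE-7883, where 61.9% of all genes were called, CSPG4 was higher in resistant than in sensitive cells (log2 1.27), and NOTCH3 (-1.49), DES and MCAM were lower. In DMSO, where 48.7% of all genes were called, RGS5 (1.08), CSPG4 (0.57) and ACTA2 (0.48) were higher, and NOTCH3 (-1.45), DES and MCAM were lower.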
